A study of Homo sapiens with 17 samples.

Results

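The genes described here were 32 human genes of cholesterol and fatty acid synthesis, chosen by name from the textbook pathway, with earlier results of these data known. They comprised 18 enzymes that lead from acetyl-CoA to cholesterol, 5 regulators and carriers of sterols, 6 enzymes of fatty acid synthesis and desaturation, and 3 genes listed here as targets of the liver X receptor (LXR). All 32 were found by symbol among the 62754 genes in the count tables, and all 32 passed the filter on low counts that left 19473 genes for testing.

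The libraries came from IMR90 ER:RAS cells, a human lung fibroblast line that carries a retroviral fusion of oncogenic RAS with an oestrogen receptor domain. Adding 4-hydroxytamoxifen (4OHT) activates the fusion and drives the cells into oncogene-induced senescence, whereas cells given the solvent DMSO keep growing. The groups were DMSO with non-targeting siRNA (DMSO siNT, n = 5), 4OHT with non-targeting siRNA (4OHT siNT, n = 6) and 4OHT with siRNA against SMARCA4, an ATPase of the SWI/SNF chromatin remodeller (4OHT siSMARCA4, n = 6). All 17 libraries carried the fusion, and no DMSO library received the SMARCA4 siRNA, so the effect of the knockdown in growing cells was not measured. For its screens, the study transfected siRNA the day before 4OHT was added. Its methods text gives no separate timing for these libraries, so the knockdown may have begun before senescence. Labels further carried an siRNA number (2 or 4) and closed with the letters V or VM, whose meaning they do not give. The letters were VM in 3 of 5 DMSO siNT, 6 of 6 4OHT siNT and 3 of 6 siSMARCA4 libraries. Whether replicates were separate cultures is not stated, so p-values measure the spread between these libraries, which may be technical.

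Cells make cholesterol from acetyl-CoA through mevalonate, farnesyl diphosphate, squalene and lanosterol. When sterol in the endoplasmic reticulum runs low, the chaperone SCAP carries the SREBP transcription factors to the Golgi, where proteases release their active fragments, which switch on most enzymes of the pathway. When sterol is plentiful, INSIG proteins hold SCAP back, while oxysterols activate LXR, which turns on cholesterol export and fatty acid synthesis. Dividing cells draw on both pathways for new membrane.

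Library totals ran from 39.11 M to 68.98 M counts (median 52.65 M). SMARCA4, reported first as the check of the labels, was 168 to 215 CPM (counts scaled to the library total) in DMSO siNT, 253 to 286 CPM in 4OHT siNT and 68.4 to 127 CPM in 4OHT siSMARCA4. Its 4OHT siSMARCA4 level was lower in every library than in either other group (log2 change -1.61 ± 0.13 SE against 4OHT siNT, adjusted p 5.14e-07). All 8 fibroblast markers were measured, and their summed level was 22851 to 27447 CPM in DMSO siNT, 13354 to 17455 CPM in 4OHT siNT and 7496 to 10778 CPM in 4OHT siSMARCA4. Of the 4 hepatocyte markers none passed the filter (summed level at most 0.16 CPM), and of the 4 adipocyte markers only FABP4 did, at 8.29 to 12.0 CPM in DMSO siNT, 2.02 to 4.24 CPM in 4OHT siNT and 1.70 to 8.34 CPM in 4OHT siSMARCA4. The 4 endothelial markers summed to 0.856 to 1.96, 3.95 to 5.94 and 2.05 to 4.46 CPM in these groups. The 4 epithelial markers, of which 2 passed the filter, summed to 52.5 to 74.6, 53.1 to 69.6 and 26.2 to 46.5 CPM, with every knockdown library below both other groups. Nearly all of that sum was KRT18 (51.5 to 73.9, 52.6 to 69.2 and 25.8 to 46.3 CPM), and EPCAM was at most 1.25 CPM. The 4 leukocyte markers, of which only CD68 passed the filter, summed to 20.0 to 26.9, 22.1 to 29.7 and 20.1 to 30.4 CPM. The part of these markers in the results was not tested. Levels here and below are on the same TMM scale. In bulk RNA, fewer cells that express a gene and less of its RNA per cell cannot be told apart.

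RefSeq promoter windows, from 250 bases before to 50 after a listed start, were available for 27 of the 32 genes, and 3 short motifs were searched on both strands. Only the first listed window of each gene was used, which need not be the start in use in these cells. The window of IDI1 lay outside the gene as annotated for the counts and is included below. The sterol regulatory element in the form TCACNCCAC, a binding sequence of SREBP, was found in 1 of 27 windows (3.7%), against 1.15% of all 27305 windows. The CCAAT box, bound by NF-Y, was in 18 of 27 (66.7%, against 35.7% of all windows), among them 12 of the 15 windows of sterol synthesis enzymes. The GC box GGGCGG, bound by SP1, was in 25 of 27 (92.6%, against 44.6%). The window with the sterol element was that of SREBF2, the gene for SREBP2 itself, and is shown for that reason. MVD, HMGCS1 and INSIG1 are shown beside it because, with ACAT2, for which no window was at hand, they differed most between VM and V libraries below, and were thus picked after their values were seen. Each sequence is 5′ to 3′ on the gene's strand in GRCh38.p14 and stops before the gene's first annotated base. Capitals mark the matches of all 3 motifs on either strand, and neighbouring GC boxes in INSIG1 overlap.
SREBF2, chr22:41832855-41833104, plus strand: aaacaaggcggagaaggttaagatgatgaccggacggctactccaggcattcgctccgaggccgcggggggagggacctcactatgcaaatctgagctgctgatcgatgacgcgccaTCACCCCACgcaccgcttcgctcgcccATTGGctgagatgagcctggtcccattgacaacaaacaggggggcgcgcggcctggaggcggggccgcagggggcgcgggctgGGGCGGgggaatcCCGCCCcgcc
MVD, chr16:88663162-88663341, minus strand: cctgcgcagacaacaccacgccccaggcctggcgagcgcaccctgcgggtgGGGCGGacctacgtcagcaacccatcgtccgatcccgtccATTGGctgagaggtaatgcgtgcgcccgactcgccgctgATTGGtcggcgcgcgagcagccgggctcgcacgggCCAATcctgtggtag
HMGCS1, chr5:43313513-43313662, minus strand: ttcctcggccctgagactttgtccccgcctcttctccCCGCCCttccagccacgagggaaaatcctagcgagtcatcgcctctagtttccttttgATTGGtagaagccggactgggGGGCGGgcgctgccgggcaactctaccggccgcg
INSIG1, chr7:155297628-155297775, plus strand: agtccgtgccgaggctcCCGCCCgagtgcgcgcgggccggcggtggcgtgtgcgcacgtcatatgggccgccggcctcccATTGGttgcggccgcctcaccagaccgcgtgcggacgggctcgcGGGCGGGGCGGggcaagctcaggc
A match is a description of these letters only, and nothing about the factors was measured here.

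The first question was what senescence changed in these genes. In 4OHT siNT against DMSO siNT, 9 of the 32 genes were called higher and 10 lower at an adjusted p under 0.05 (edgeR quasi-likelihood test, adjusted over all 19473 genes). Over all genes tested 27.0% were called higher and 27.4% lower, so the share of members called was near that of any gene. Of the 18 sterol synthesis enzymes 7 fell and 1 rose (median log2 change -0.30), of the 6 fatty acid genes 3 rose and 2 fell, and all 3 LXR targets rose. The median over the 32 genes was 0.02 and over all genes 0.004. In 5 members every 4OHT siNT library lay above every DMSO siNT library and in 7 every library lay below, where 19.6% and 20.0% of all genes did so. With VM libraries alone 9 were higher and 12 lower (23.5% and 27.0% of all genes). A fit with a term for each group and letter was chosen after seeing the data and is described below. Between its VM groups 10 of the 18 sterol enzymes were lower and 1 higher (median -0.35), where 5013 and 4773 of all 19473 genes were.

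**Figure D1:**
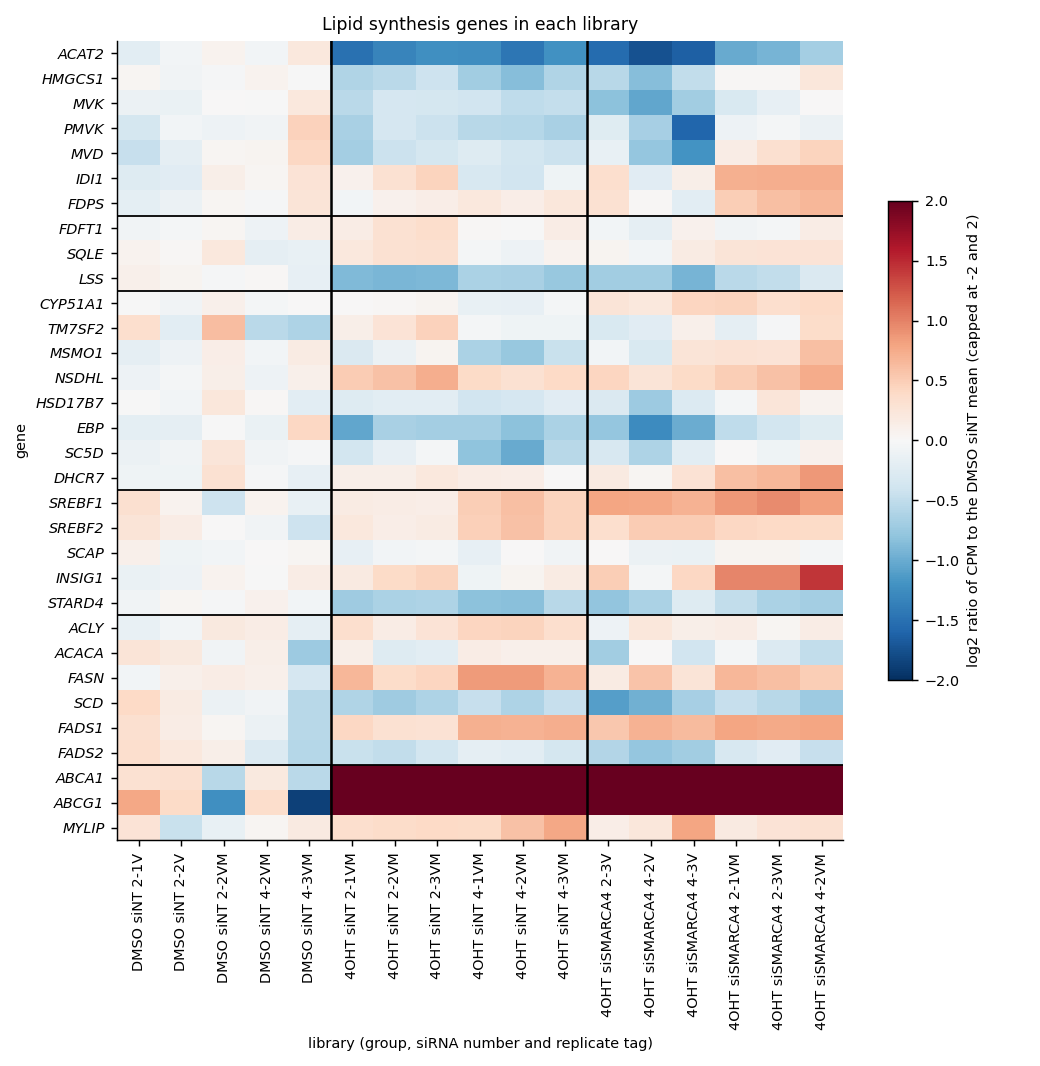
Level of each of the 32 genes (rows, in role groups divided by lines) in each of the 17 libraries (columns, by group and then by V and VM), as the log2 ratio of its CPM to the DMSO siNT mean, with colour capped at -2 and 2. ABCA1 and ABCG1 exceed the cap in every 4OHT library, and the 3 VM libraries of 4OHT siSMARCA4 at the right differ from its 3 V libraries across the upper rows.

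The mevalonate arm takes acetyl-CoA to farnesyl diphosphate. Its first enzyme here, ACAT2, which joins 2 acetyl-CoA molecules, showed the largest fall. ACAT2 was at 66.6, 74.5, 81.2, 74.5 and 89.0 CPM in the 5 DMSO siNT libraries. In 4OHT siNT it ran from 27.3 to 33.4 CPM with a median of 31.8. No library of either group reached the other, and the log2 change was -1.32 ± 0.16 (SE; adjusted p 9.19e-07). HMGCS1, the synthase that adds the third acetyl unit, was at 68.4, 64.0, 65.5, 70.3 and 66.3 CPM in DMSO siNT against 37.1 to 50.4 CPM (median 44.1) in 4OHT siNT. Again the groups did not overlap (log2 change -0.61 ± 0.15, adjusted p 0.00168). The kinases MVK (-0.43 ± 0.15, adjusted p 0.0192) and PMVK (-0.53 ± 0.20, adjusted p 0.0343), which phosphorylate mevalonate in turn, also fell. PMVK rested in part on DMSO siNT 4-3VM, at 29.7 CPM against 17 to 20.7 CPM in the other DMSO libraries, and without that library its adjusted p was 0.121 and that of MVK 0.0539. MVK was not called with siRNA number 2 or 4 alone (-0.36 and -0.61, adjusted p 0.0673 and 0.0801). Leaving out 4OHT siNT 2-1VM, 4-1VM, 4-2VM or 4-3VM also ended the PMVK call (adjusted p 0.0545 to 0.0627), as did siRNA number 4 alone (-0.85, adjusted p 0.0604), whereas PMVK was called with number 2 alone (-0.34). MVD, the decarboxylase that follows, was not called (-0.41 ± 0.22, adjusted p 0.132). It was called lower under 5 of 23 alternatives, and between the VM groups in the fit by letters (-0.59 ± 0.16, adjusted p 0.00599). The isomerase IDI1 (0.04 ± 0.18) and farnesyl diphosphate synthase FDPS (0.12 ± 0.13) were not called. The IDI1 estimate was 0.36 with siRNA number 2 alone and -0.46 with number 4 alone (adjusted p 0.05 and 0.152), neither called.

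Further along, LSS, which folds squalene epoxide into lanosterol, was at 168, 164, 155, 161 and 141 CPM in DMSO siNT and at 83.5 to 102 CPM (median 89.0) in 4OHT siNT. The groups were apart and the log2 change was -0.79 ± 0.10 (adjusted p 1.10e-06). The enzymes on either side of squalene, FDFT1 (0.17 ± 0.08, adjusted p 0.0802) and SQLE (0.13 ± 0.09, adjusted p 0.247), were not called. FDFT1 was called higher with siRNA number 2 alone (0.26, adjusted p 0.00877) and was at -0.02 with number 4 alone. Among the 8 enzymes from lanosterol to cholesterol, the sterol isomerase EBP (-0.74 ± 0.16, adjusted p 0.000585) and the desaturase SC5D (-0.45 ± 0.15, adjusted p 0.0184) fell. NSDHL, which takes part in removing the 4-methyl groups, went the other way. It was at 39, 41.0, 45.4, 39.2 and 45.3 CPM in DMSO siNT and at 51.8 to 69.2 CPM (median 57.5) in 4OHT siNT, without overlap (0.49 ± 0.09, adjusted p 0.000155). NSDHL was at 0.30 with siRNA number 4 alone (adjusted p 0.157) and SC5D at -0.24 with number 2 alone (adjusted p 0.123). The demethylase CYP51A1 (-0.04 ± 0.06), the reductase TM7SF2 (0.12 ± 0.20), the methyl oxidase MSMO1 (-0.34 ± 0.15, adjusted p 0.0674), the ketoreductase HSD17B7 (-0.27 ± 0.13, adjusted p 0.0979, though its groups did not overlap) and the final reductase DHCR7 (0.12 ± 0.12) were not called. MSMO1 was called lower under 8 of 23 alternatives, among them siRNA number 4 alone (-0.71, adjusted p 0.0309), and was at -0.10 with number 2 alone. HSD17B7 was called lower under 4 of 23, and between the VM groups in the fit by letters (-0.29 ± 0.12, adjusted p 0.0489). Reads of CYP51A1, TM7SF2, EBP and, below, FADS2 may have been shared with annotated genes that overlap them on the same strand, so their levels are uncertain.

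Of the 5 regulators and carriers 2 rose and 1 fell. SREBF1, which encodes SREBP1, was at 55.1, 46.5, 33.1, 46.3 and 39.8 CPM in DMSO siNT and at 48.1 to 67.2 CPM in 4OHT siNT. Those groups overlapped, and the log2 change was 0.34 ± 0.11 (adjusted p 0.0169, or 0.0774 without DMSO siNT 2-2VM). With siRNA number 2 alone it was 0.08 (adjusted p 0.666). SREBF2, which encodes SREBP2 and holds the sterol element printed above, rose by 0.35 ± 0.11 (adjusted p 0.0096), although with the siRNA number 2 libraries alone its change was 0.00. There DMSO siNT 2-1V, 2-2V and 2-2VM were at 161, 148 and 135 CPM, against 147 to 156 CPM in 4OHT siNT. In this comparison every fit with number 2 alone sets V and VM DMSO siNT libraries against VM libraries, so number and letters cannot be told apart. SCAP (-0.08 ± 0.06) and INSIG1 (0.20 ± 0.18) were not called, although INSIG1 was called with siRNA number 2 alone (0.36, adjusted p 0.0383) and was at -0.07 with number 4 alone. STARD4, a carrier of free sterol in the cytosol, fell by 0.70 on the log2 scale (SE 0.09, adjusted p 1.44e-06). It was at 49.6, 53.6, 51.4, 55.3 and 50.2 CPM in DMSO siNT and at 29.1 to 35.3 CPM in 4OHT siNT, well apart.

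Among the fatty acid genes, FASN, the fatty acid synthase, was at 307, 342, 353, 341 and 254 CPM in DMSO siNT. In 4OHT siNT it ran from 411 to 577 CPM with a median of 514, above every DMSO library (0.65 ± 0.12, adjusted p 9.80e-05). ACLY, which supplies cytosolic acetyl-CoA from citrate (0.33 ± 0.08, adjusted p 0.00236), and the delta-5 desaturase FADS1 (0.53 ± 0.13, adjusted p 0.00149) rose too. The stearoyl-CoA desaturase SCD fell (-0.57 ± 0.13, adjusted p 0.00134), and so did the delta-6 desaturase FADS2 (-0.34 ± 0.14, adjusted p 0.0453). FADS1 was at 0.12 with the siRNA number 2 libraries alone (adjusted p 0.318), ACLY at 0.22 (adjusted p 0.0933), and SCD at -0.27 with number 4 alone (adjusted p 0.194). FADS2 was called under 10 of 23 alternative settings, lost its call without any 1 of DMSO siNT 2-1V, 2-2V and 2-2VM or 4OHT siNT 2-1VM, 2-2VM and 4-3VM (adjusted p 0.0639 to 0.116), and was 0.13 with the siRNA number 4 libraries alone. ACACA, the carboxylase that makes malonyl-CoA, was at 0.01 ± 0.16 (adjusted p 0.958).

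All 3 genes listed here as LXR targets rose, and ABCA1 and ABCG1 rose most of the 32 genes. Of the 6 fatty acid genes, a pathway that LXR also turns on, 3 rose and 2 fell. ABCA1, which exports cholesterol to lipid-poor apolipoprotein, was at 41.4, 41.7, 22.7, 38.2 and 23.1 CPM in DMSO siNT. It ran from 137 to 182 CPM (median 149) in 4OHT siNT, 4.53 times as high by the fit (log2 change 2.18 ± 0.17, adjusted p 3.37e-09). ABCG1, which exports cholesterol to mature lipoprotein particles, was near absent in growing cells, with 2 to 12 counts per DMSO siNT library and 33 in all. The 4OHT siNT libraries held 167 to 324 counts each, or 3.67 to 6.21 CPM (log2 change 5.36 ± 0.35, adjusted p 2.85e-10). MYLIP, a ubiquitin ligase that removes lipoprotein receptors, rose by 0.48 ± 0.15 (adjusted p 0.0105), from 1.95 to 3.21 CPM in DMSO siNT to 3.36 to 4.54 CPM. It was not called with either siRNA number alone (0.41 and 0.43, adjusted p 0.0859 and 0.148). All 3 genes were higher in every 4OHT siNT library than in any DMSO siNT library. Per kilobase of exon, mean ABCA1 stood at 2.94 CPM in DMSO siNT and 13.3 CPM in 4OHT siNT, while ABCG1 stood at 0.0199 and 0.824 CPM. The 6 genes of cell division (MKI67, TOP2A, CCNB1, CDK1, MCM2 and PCNA, a list chosen after the values were seen) moved with the same comparison, with a summed level of 281 to 412 CPM in DMSO siNT and 70.9 to 100.1 CPM in 4OHT siNT. Their part in these changes was not tested.

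**Figure D2:**
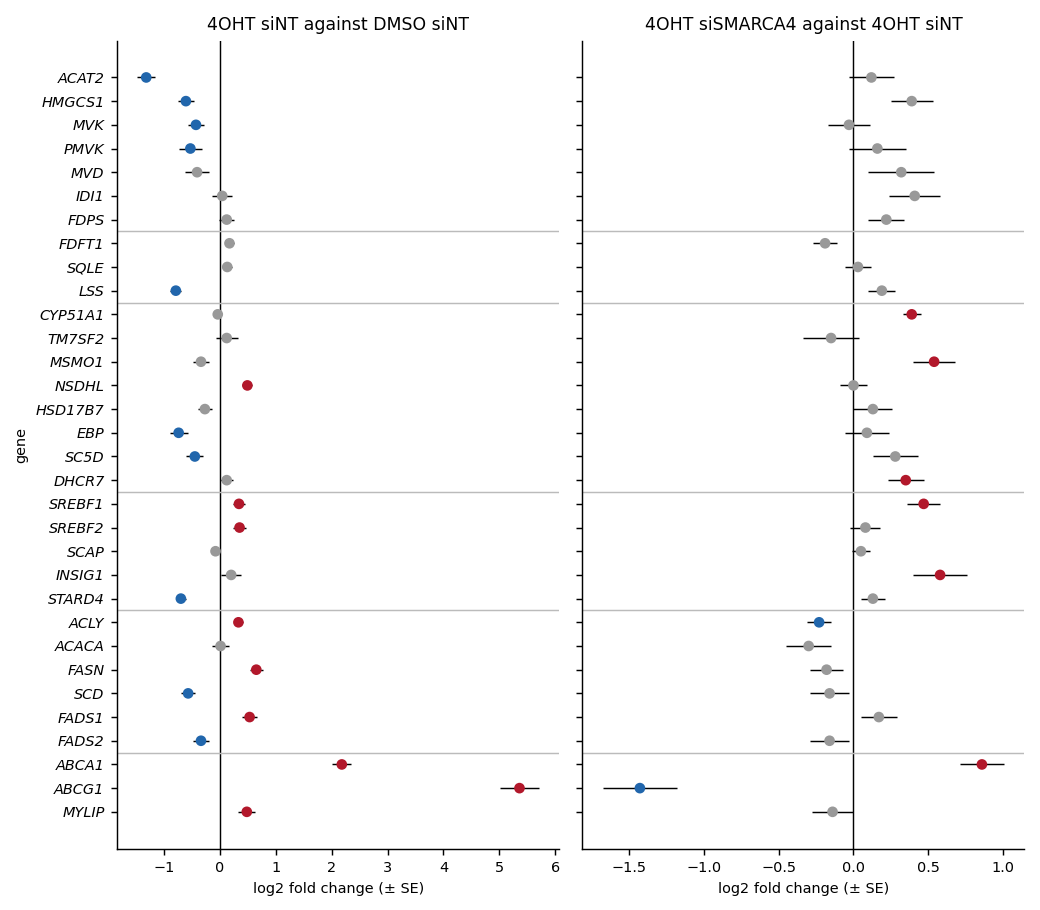
Log2 fold change (horizontal, bars ± SE) of each gene for 4OHT siNT against DMSO siNT and for 4OHT siSMARCA4 against 4OHT siNT, which share the 4OHT siNT libraries; red marks genes called higher, blue lower and grey not called, and the 2 panels have different axes. The left panel runs from -1.32 (ACAT2) to 5.36 (ABCG1), the right from -1.43 (ABCG1) to 0.86 (ABCA1).

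The second question was how 4OHT cells given siRNA against SMARCA4 differed from 4OHT cells given non-targeting siRNA. SMARCA2, the paralog of SMARCA4 in SWI/SNF, was lower too (-0.53 ± 0.10, adjusted p 0.000847), and its part in the changes was not tested. In 4OHT siSMARCA4 against 4OHT siNT, 6 genes were called higher and 2 lower, where 10.4% of all genes were higher and 13.8% lower. ABCA1, INSIG1, MSMO1, SREBF1, CYP51A1 and DHCR7 rose, and ABCG1 and ACLY fell. Of the 18 sterol synthesis enzymes 3 rose and none fell by edgeR (1 of 18 had a negative estimate at an unadjusted p under 0.05, and DESeq2 called none lower), with a median of 0.17 against -0.024 over all genes. In 3 members (ABCA1, SREBF1, CYP51A1) the siSMARCA4 libraries all exceeded those of 4OHT siNT and in ABCG1 all were below, where 4.54% and 7.49% of all genes did so.

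The LXR targets parted under the knockdown. ABCA1 was at 321, 229, 255, 332, 227 and 279 CPM in the siSMARCA4 libraries, each above the highest 4OHT siNT library at 182 CPM. Its log2 change was 0.86 ± 0.15 (adjusted p 0.000666), and 4OHT siNT was itself above DMSO siNT. ABCG1 fell to 1.27 to 2.63 CPM (median 1.76), each below the lowest 4OHT siNT library at 3.67 CPM and still above every DMSO siNT library. That log2 change was -1.43 ± 0.25 (adjusted p 0.000534), and MYLIP was at -0.14 ± 0.14 (adjusted p 0.495). The call for ABCA1 held under all 26 alternative settings, whereas that for ABCG1 was lost with the siRNA number 4 libraries alone (-1.13, adjusted p 0.0624), although in the fit of all libraries the effect of number 4 was called (-1.16, adjusted p 0.0272).

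SREBF1 rose in all 6 knockdown libraries, which lay between 71.7 and 84.9 CPM (median 77.3), above the highest 4OHT siNT library at 67.2 CPM (0.47 ± 0.11, adjusted p 0.00443). With the siRNA number 4 libraries alone it was not called (0.29, adjusted p 0.131). CYP51A1 was also apart, at 40.3 to 47.5 CPM against 31.2 to 36.4 CPM (0.39 ± 0.06, adjusted p 0.000264), with the uncertainty of shared reads given above. INSIG1, the sterol-sensing brake on SREBP and itself an SREBP target, ran from 54.1 to 150 CPM against 52.4 to 76.1 CPM in 4OHT siNT. Those ranges overlapped, and the log2 change was 0.58 ± 0.18 (adjusted p 0.0214). MSMO1 (0.54 ± 0.14, adjusted p 0.0112) and DHCR7 (0.35 ± 0.12, adjusted p 0.0392) overlapped likewise, and with siRNA number 2 alone MSMO1 was at 0.33 (adjusted p 0.0747). The INSIG1 call ended without 4OHT siNT 4-1VM (adjusted p 0.0518) or siSMARCA4 4-2VM (0.0614), and with siRNA number 4 alone (0.74, adjusted p 0.175). DHCR7 was called under 15 of 26 alternatives, and its call ended without any 1 VM knockdown library (adjusted p 0.0829 to 0.109) or any 1 siNT library but 2-3VM (0.0593 to 0.0788). HMGCS1 just missed the threshold (0.39 ± 0.14, adjusted p 0.0514), as did FDFT1 on the negative side (-0.19 ± 0.08, adjusted p 0.0832, but called lower with siRNA number 2 alone at -0.29, adjusted p 0.0131) and IDI1 (0.41 ± 0.17, adjusted p 0.0922). ACAT2 (0.12), MVK (-0.03), PMVK (0.16), MVD (0.32), FDPS (0.22), SQLE (0.03), LSS (0.19), TM7SF2 (-0.15), NSDHL (0.00), HSD17B7 (0.13), EBP (0.09) and SC5D (0.28) were not called, with SE between 0.09 and 0.22. With siRNA number 2 alone MVD (0.64), FDPS (0.45), PMVK (0.39) and LSS (0.37) were called higher (adjusted p 0.0124, 0.00737, 0.0306 and 0.00586). With number 4 alone they were at 0.06, 0.06, -0.04 and 0.11. The fit of all libraries by number called none of MVD, FDPS, PMVK and LSS for number 2 (adjusted p 0.169, 0.0975, 0.358 and 0.0719). In that same fit SC5D was called for number 4 (0.56, adjusted p 0.0311) and was at 0.05 for number 2. With the number 4 libraries alone SC5D was not called (0.6, adjusted p 0.0842).

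Of the 6 fatty acid genes only ACLY was called. It fell (-0.23 ± 0.08, adjusted p 0.0406), a call that held under 8 of 26 alternatives and ended when 9 of the 12 libraries were left out in turn, all but 4OHT siNT 2-2VM and siSMARCA4 4-2V and 4-3V (adjusted p 0.0529 to 0.0959). FASN (-0.18 ± 0.11), ACACA (-0.30 ± 0.15), SCD (-0.16 ± 0.13), FADS2 (-0.16 ± 0.13) and FADS1 (0.17 ± 0.12) were not called. In the fit by siRNA number FADS1 was higher for number 2 (0.37, adjusted p 0.0243) and at 0.00 for number 4, and FADS2 was lower for number 4 (-0.39, adjusted p 0.0291) and at 0.06 for number 2. In fits of 1 number alone FADS1 was called for number 2 (0.41, adjusted p 0.0131), but FADS2 was not called for number 4 (-0.35, adjusted p 0.129). SREBF2 (0.08 ± 0.10), SCAP (0.05 ± 0.06) and STARD4 (0.13 ± 0.08) were not called either. SREBF2 was called higher with siRNA number 2 alone (0.25, adjusted p 0.0393) and was at 0.00 with number 4 alone. The fit of all libraries by number did not call SREBF2 for number 2 (0.21, adjusted p 0.122).

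**Figure D3:**
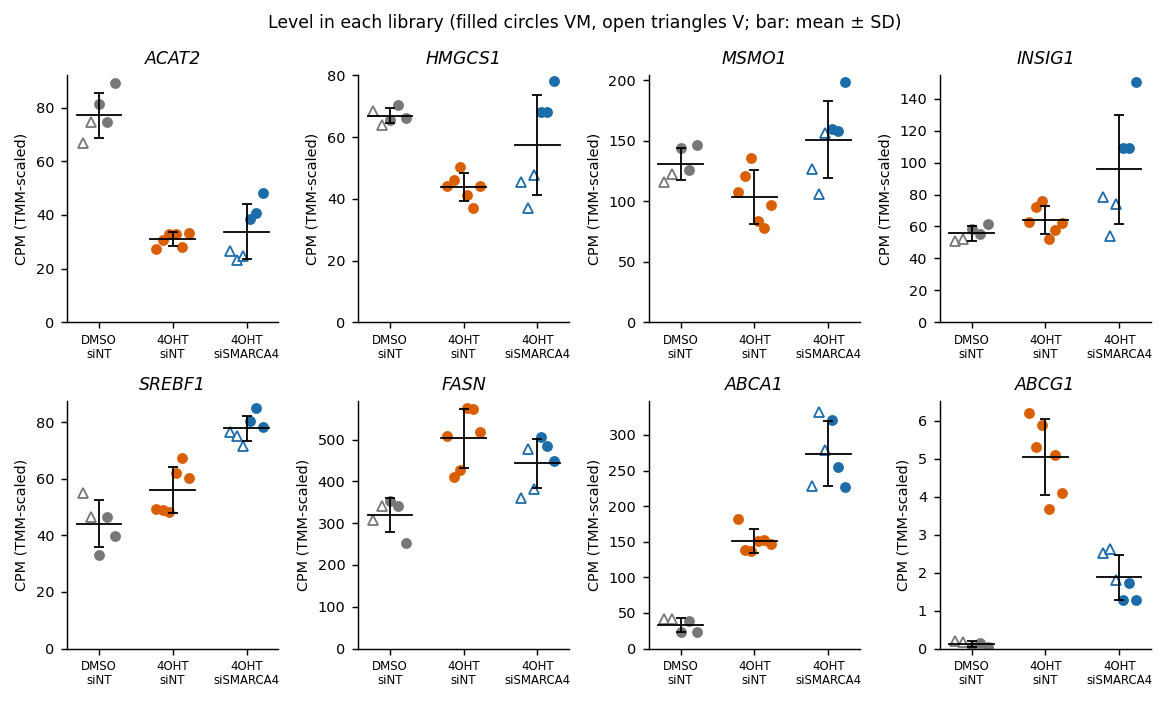
CPM of 8 of the genes in each library by group, with filled circles for VM and open triangles for V libraries and bars for mean ± SD (n = 5, 6 and 6). In 4OHT siSMARCA4 the VM libraries of ACAT2, HMGCS1 and INSIG1 lie above the V libraries, as do those of SREBF1 by a smaller margin, while those of ABCA1 overlap.

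Within 4OHT siSMARCA4, many sterol genes divided by the letters V and VM. ACAT2 was at 38.4, 40.6 and 48.3 CPM in the VM libraries and at 26.5, 23.2 and 24.8 CPM in the V libraries. HMGCS1 was at 68.1, 68.0 and 78.2 CPM in VM and at 45.6, 37.0 and 47.7 CPM in V. For INSIG1 the values were 109, 109 and 150 CPM in VM and 78.6, 54.1 and 74.2 CPM in V. In each of these genes the lowest VM library was above the highest V library. A fit with a term for each group and letter, chosen after seeing the data, tested the difference across all genes.

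VM minus V within 4OHT siSMARCA4 was called higher for 9 of the 32 genes and lower for none by edgeR (ABCG1 alone was negative with unadjusted p below 0.05, and this contrast was fitted in edgeR alone). Over all genes tested 1.42% were called higher and 2.28% lower. The 9 were MVD (0.96 ± 0.19, adjusted p 0.0116), INSIG1 (0.83 ± 0.16, adjusted p 0.00734), ACAT2 (0.77 ± 0.11, adjusted p 0.00178), HMGCS1 (0.72 ± 0.11, adjusted p 0.00261), MVK (0.70 ± 0.11, adjusted p 0.0025), EBP (0.63 ± 0.15, adjusted p 0.0311), DHCR7 (0.55 ± 0.11, adjusted p 0.0103), FDPS (0.54 ± 0.12, adjusted p 0.0185) and HSD17B7 (0.52 ± 0.14, adjusted p 0.0477). All 18 sterol enzymes had a positive estimate (median 0.53), against a median of -0.018 over all genes. The sterol enzymes that did not pass were PMVK (0.65), IDI1 (0.63), MSMO1 (0.41), SC5D (0.38), LSS (0.33), NSDHL (0.25), TM7SF2 (0.21), SQLE (0.20), CYP51A1 (0.09) and FDFT1 (0.06). Nor did FADS2 (0.35), SCD (0.31), FASN (0.24), FADS1 (0.16), ACACA (0.07), ACLY (0.03), SREBF1 (0.12), SCAP (0.10), SREBF2 (-0.05), STARD4 (-0.06), ABCA1 (-0.07), MYLIP (-0.16) and ABCG1 (-0.70).

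The same contrast within DMSO siNT, 3 VM against 2 V libraries, called 0 of the 32 genes by edgeR, the tool used throughout for the letters (unadjusted p was below 0.05 for 8), where 0.354% of all genes were higher and 0.411% lower. Its median over the 18 sterol enzymes was 0.15, and 15 of the 18 were positive. The difference between the groups in VM minus V was itself tested, and 0.539% of all genes were called higher and 0.729% lower. Of the 32 genes only FADS2 passed (0.84 ± 0.20, adjusted p 0.0498), with SCD at 0.83 ± 0.20 (adjusted p 0.0513) and HMGCS1 at 0.69 ± 0.17 (adjusted p 0.052) just outside. FADS2 was lower in VM within DMSO siNT (-0.49 ± 0.15) and higher in VM within 4OHT siSMARCA4 (0.35 ± 0.13), neither called on its own. Every V library of DMSO siNT carried siRNA number 2, and number 4 occurred only among its VM libraries. Letters and number therefore cannot be fully told apart in that group or in this difference. FADS2 was at 270 and 250 CPM in DMSO siNT 2-1V and 2-2V, 232 CPM in 2-2VM, and 177 and 145 CPM in 4-2VM and 4-3VM. Of the 18 sterol enzymes none was called for this difference by edgeR (6 had an unadjusted p below 0.05), and 17 of the 18 estimates were positive, with a median of 0.33.

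**Figure D4:**
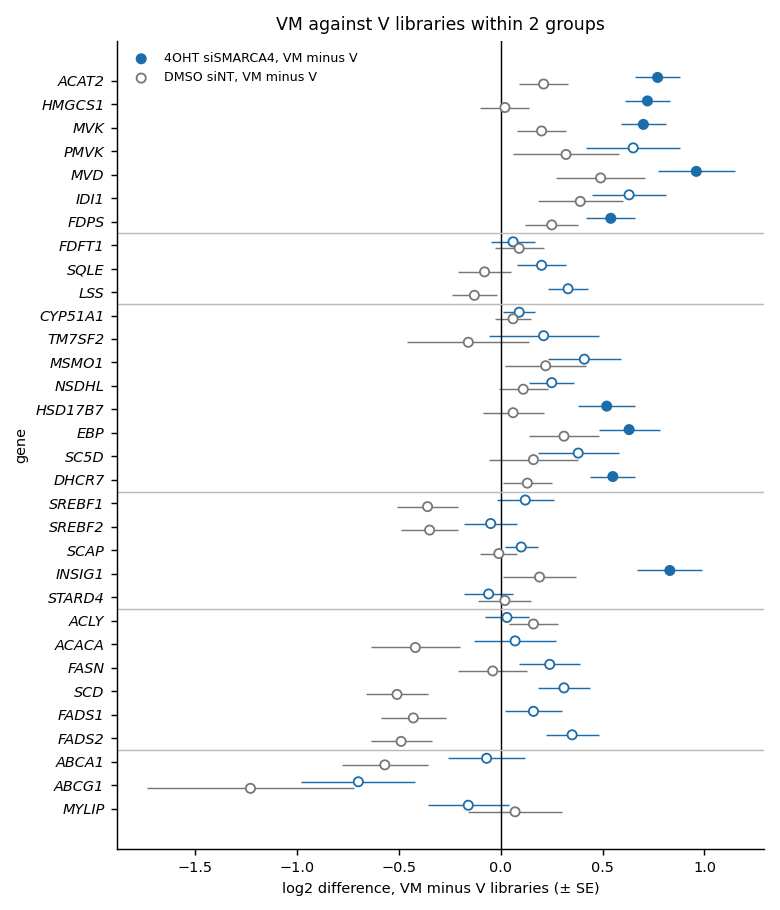
Log2 difference between VM and V libraries (horizontal, bars ± SE) for each gene, within 4OHT siSMARCA4 (3 VM, 3 V; blue) and within DMSO siNT (3 VM, 2 V; grey); filled points were called. The called points are 8 sterol enzymes and INSIG1, between 0.52 and 0.96, all within 4OHT siSMARCA4.

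Because every 4OHT siNT library was VM, the letters also bear on the knockdown comparison. The 3 VM knockdown libraries against the 6 VM siNT libraries alone gave 16 genes higher and 1 lower, where 11.6% of all genes were higher and 15.3% lower. In the fit of all libraries by letter, the same VM libraries gave 15 higher, without PMVK, and 1 lower (11.7% and 15.7% of all genes). The 16 were ABCA1, SREBF1, INSIG1 and 13 sterol enzymes, with INSIG1 at 0.95 (adjusted p 0.000152), MVD at 0.74 (adjusted p 0.000345), HMGCS1 at 0.72 (adjusted p 0.000124) and ACAT2 at 0.47 (adjusted p 0.00396). In that fit of all libraries, the 3 V knockdown libraries against the same siNT libraries gave 3 higher (ABCA1 0.89, SREBF1 0.41, CYP51A1 0.34) and 3 lower (ABCG1 -1.12, MVK -0.42, ACAT2 -0.32), where 5.11% of all genes were higher and 7.03% lower. The INSIG1 (0.11, adjusted p 0.654), DHCR7 (0.05, adjusted p 0.783) and MSMO1 (0.32, adjusted p 0.189) calls of the comparison of all libraries were lost in the V libraries, where HMGCS1 was at -0.01 and MVD at -0.23. ACAT2 and MVK had opposite signs in the 2 subsets and were called in both. ABCA1, SREBF1, CYP51A1 and ABCG1 were called in the same direction in both. The V subset cannot be told apart from the letters, since no 4OHT siNT library is V.

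Summed over the 18 sterol enzymes, the knockdown libraries held 1523, 1571 and 1736 CPM in VM and 1282, 1092 and 1231 CPM in V. The 4OHT siNT libraries lay between 1102 and 1387 CPM and the DMSO siNT libraries between 1284 and 1473 CPM, so 2 of the 3 V libraries lay within the range of 4OHT siNT and 4-2V just below it, and the VM libraries lay above every library of the other groups. Other measures moved with the same letters. SMARCA4 itself was at 68.4 to 78.3 CPM in the VM and 82.7 to 127 CPM in the V knockdown libraries (VM minus V -0.54 ± 0.12, adjusted p 0.0201). The 6 cell division genes summed to 94.6 to 100.1 CPM in VM and 68.5 to 86.4 CPM in V. Against 4OHT siNT, over all knockdown libraries, CDK1 (1.39 ± 0.32, adjusted p 0.0039) and TOP2A (0.68 ± 0.19, adjusted p 0.0134) were called higher. MKI67 (0.49, adjusted p 0.274) and CCNB1 (0.08, adjusted p 0.598) were not called. Mean MCM2 and PCNA were 7.04 and 61.9 CPM in 4OHT siNT and 6.78 and 62.2 CPM in 4OHT siSMARCA4. Repeats took 1.52% to 1.76% of counts in VM and 1.77% to 1.83% in V, and totals were 49.9 M to 51.1 M and 52.4 M to 69 M counts. Of the 8 fibroblast markers 4 were lower in every VM than in every V knockdown library, namely THY1 (101.5 to 130.9 against 184.4 to 218.7 CPM), PDGFRB (30.8 to 37.5 against 54.0 to 68.6 CPM), COL1A1 (1223 to 2127 against 2455 to 3236 CPM) and VIM (5090 to 5626 against 5745 to 6299 CPM), and the other 4 overlapped. Of the 4 endothelial markers VWF (1.47 to 2.02 CPM in VM, 3.10 to 3.83 CPM in V) and PECAM1 (0.137 to 0.276 and 0.338 to 0.629 CPM) were lower in VM, KDR was higher (0.235 to 0.322 and 0.0188 to 0.213 CPM), and CDH5 overlapped. Among the epithelial markers EPCAM was lower in VM (0.121 to 0.176 and 0.234 to 0.367 CPM), KRT18 and CDH1 overlapped, and KRT5 had no counts. The part of these measures in the sterol differences was not tested.

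**Figure D5:**
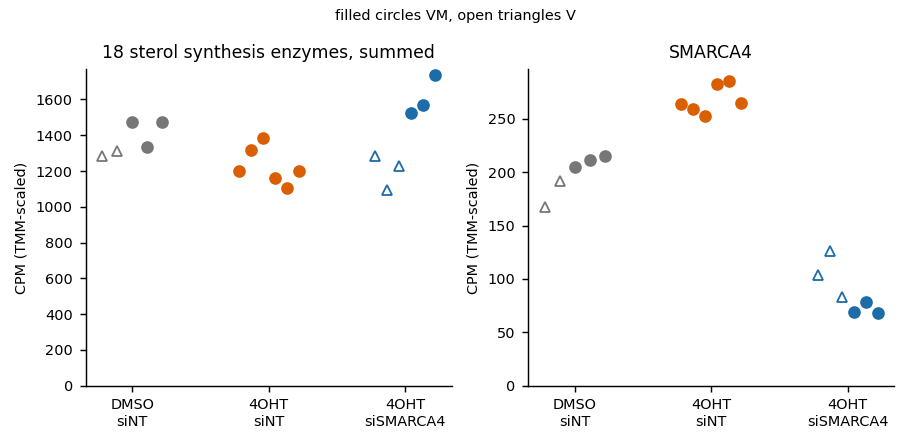
Summed CPM of the 18 sterol synthesis enzymes and CPM of SMARCA4 in each library by group, with filled circles for VM and open triangles for V. The 3 VM knockdown libraries hold the highest enzyme sums (1523 to 1736 CPM) and the lowest SMARCA4 levels (68.4 to 78.3 CPM).

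Some of the role groups varied together between libraries. After each group's mean was taken off, the median Pearson r over pairs of the 7 mevalonate genes was 0.80 across the 17 libraries, over pairs of the 8 enzymes from lanosterol to cholesterol 0.62, and over pairs of the 6 fatty acid genes 0.72, where pairs of all genes had a median of 0.00. It was -0.03 over the 3 squalene and lanosterol genes, -0.06 over the 5 regulators and carriers, -0.08 over the 3 LXR targets and 0.14 over all 32 genes. All pairs share the same libraries, with their depth and letters, so the values are a description. With the means of group and letters both taken off, the medians of the first 3 lists were 0.33, 0.49 and 0.72, and that over all 32 genes was 0.02. The fatty acid genes therefore varied together within letters as well, and the mevalonate genes less so. The gene most like the mean of the sterol enzymes was INSIG1 (r 0.96), followed by ACAT2, HMGCS1 and MVK (each 0.91 with the mean of the other enzymes). LSS (0.37) and TM7SF2 (0.28) were least like it among the enzymes, and SREBF2 (-0.45), ABCA1 (-0.50) and ABCG1 (-0.56) were opposite in sign. The fatty acid genes lay between -0.36 (ACACA) and 0.22 (FADS2).

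The knockdown effect could be had separately for siRNA numbers 2 and 4. A number was shared by a SMARCA4 siRNA and a non-targeting siRNA, which are different siRNAs. Each effect, here and with 1 number alone above, thus also depends on the control that shares its number. The difference between the 2 effects was called for none of the 32 genes by edgeR, with unadjusted p below 0.05 for 7 and DESeq2 not applied, where 1.06% of all genes were called. The largest of the 7 were TM7SF2 (-0.61 ± 0.25, adjusted p 0.253) and MSMO1 (-0.55 ± 0.25, adjusted p 0.308). Between the controls alone, 4OHT siNT number 2 minus number 4 was 0.36 ± 0.18 for TM7SF2 and 0.50 ± 0.18 for MSMO1, neither called. Of the siSMARCA4 libraries, 2 of the 3 with number 2 were VM and 1 of the 3 with number 4 was, so number and letters were not balanced. The 4OHT siNT libraries themselves divided by number, with 4.68% of all genes called between numbers 2 and 4. None of the 32 genes was called there by edgeR (10 had an unadjusted p below 0.05), while 13 of the 18 sterol enzymes had higher and all 6 fatty acid genes lower estimates with number 2.

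Against growing cells, the depleted senescent cells had 12 genes higher and 7 lower, where 26.5% of all genes were higher and 28.6% lower. This comparison shares its libraries with the other 2. In 8 genes every siSMARCA4 library lay above every DMSO siNT library and in 4 below, where 16.4% and 19.9% of all genes did so. ABCA1 (3.04 ± 0.18), ABCG1 (3.94 ± 0.35), SREBF1 (0.82 ± 0.12), INSIG1 (0.79 ± 0.19), FADS1 (0.70 ± 0.13), NSDHL (0.49 ± 0.09), DHCR7 (0.47 ± 0.12), FASN (0.47 ± 0.12), IDI1 (0.44 ± 0.18), SREBF2 (0.43 ± 0.11), CYP51A1 (0.35 ± 0.06) and FDPS (0.34 ± 0.13) were higher. ACAT2 (-1.20 ± 0.16), SCD (-0.73 ± 0.13), EBP (-0.65 ± 0.16), LSS (-0.59 ± 0.10), STARD4 (-0.57 ± 0.09), FADS2 (-0.50 ± 0.14) and MVK (-0.46 ± 0.15) were lower. The calls of IDI1 and FDPS each ended without any 1 of 7 libraries, the DMSO siNT libraries but 4-3VM and the 3 VM knockdown libraries (adjusted p 0.0723 to 0.136 and 0.0648 to 0.122). FADS2 lost its call with VM libraries only (-0.12, adjusted p 0.511), with siRNA number 4 only and with a term for the replicate tag. MVK lost its call with VM libraries only (-0.24) and with either number alone (adjusted p at most 0.0934), and INSIG1 and DHCR7 with number 4 only (adjusted p 0.161 and 0.081). With number 4 only IDI1 was at 0.10 and FDPS at 0.08. The ACAT2 level in the highest knockdown library, 48.3 CPM, was below the lowest DMSO siNT library at 66.6 CPM, and so ACAT2 was low in all 12 senescent libraries, V and VM alike. HMGCS1 was at -0.22 ± 0.15 (adjusted p 0.22), with its VM libraries within or above the DMSO siNT range of 64.0 to 70.3 CPM and its V libraries below. MVD (-0.09), PMVK (-0.37), FDFT1 (-0.02), SQLE (0.17), TM7SF2 (-0.03), MSMO1 (0.21), HSD17B7 (-0.14), SC5D (-0.17), SCAP (-0.03), ACLY (0.10), ACACA (-0.29) and MYLIP (0.33) were not called either.

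Per kilobase of exon, ACLY stood highest in all 3 groups, at a mean of 79.6, 100.1 and 85.3 CPM in DMSO siNT, 4OHT siNT and 4OHT siSMARCA4. The most abundant sterol enzymes on that scale were MSMO1, FDFT1 and FDPS (45.9, 38.1 and 38.6 CPM in DMSO siNT), and the least was HSD17B7 (1.47 CPM). Among the transcription factor genes, SREBF2 was above SREBF1 in each group (16.7 against 5.36, 21.3 against 6.80 and 22.4 against 9.44 CPM per kilobase).

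Other genes of lipid metabolism were followed in 5 lists, whose counts stand against 27.0% of all genes higher and 27.4% lower in senescence and 10.4% and 13.8% with the knockdown. Among 11 genes of SREBP processing and sterol sensing, 4 rose and 4 fell in senescence and 2 rose and 2 fell with the knockdown. NR1H3, which encodes LXR alpha, was lower in both comparisons (-1.03 ± 0.19 and -0.95 ± 0.18, adjusted p 0.000108 and 0.00126), while ABCA1 was higher in both. NR1H2, which encodes LXR beta and was picked after its values were seen, rose in senescence (0.41 ± 0.09, adjusted p 0.000774) and was at 0.17 ± 0.09 with the knockdown (adjusted p 0.178). ERLIN1 (-0.85), an endoplasmic reticulum protein that restrains SREBP, and SPRING1 (0.68), needed for its cleavage, were the next largest in senescence, and the protease gene MBTPS2 rose with the knockdown (0.23). Among 15 further SREBP target and lipid supply genes, 3 rose and 6 fell in senescence (median -0.21), led by PCYT2 (-1.05), TMEM97 (-0.86) and ME1 (-0.86). With the knockdown 2 rose and 3 fell (median 0.00), led by AACS (-0.53), HSD17B12 (0.48) and ELOVL6 (-0.33). Of 12 genes of the isoprenoid branch, which draws on farnesyl diphosphate, 2 rose and 3 fell in senescence, led by RABGGTA (0.61), PGGT1B (-0.47) and FNTA (0.38). With the knockdown 4 rose and none fell by edgeR (none had a negative estimate at an unadjusted p under 0.05), led by GGPS1 (0.43), which makes geranylgeranyl diphosphate, RABGGTB (0.42) and PGGT1B (0.36).

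Within the 5 lists, genes of sterol uptake, storage and traffic and of lipid droplets gave the largest single changes. Against the same shares of all genes (27.0% and 27.4%, then 10.4% and 13.8%), of 13 uptake, storage and traffic genes, 4 rose and 6 fell in senescence, led by the caveolar protein CAV1 (-2.55 ± 0.12), the sterol carrier STARD5 (-1.56 ± 0.18) and GRAMD1B (-1.46 ± 0.18), which moves cholesterol from the plasma membrane. With the knockdown 4 rose and 4 fell, led by GRAMD1B (-0.84), the cholesteryl ester hydrolase NCEH1 (0.73) and CAV1 (0.46). Of 9 triglyceride and lipid droplet genes tested (CIDEC was not), 5 rose and 1 fell in senescence, led by the lipase inhibitor G0S2 (4.04 ± 0.37), the acyltransferase DGAT2 (2.87 ± 0.30) and LPIN2 (0.64 ± 0.09). With the knockdown G0S2 (-2.19 ± 0.31, adjusted p 9.57e-05) and DGAT2 (-0.96 ± 0.25, adjusted p 0.0106) fell and the droplet coat protein PLIN2 rose (0.53 ± 0.08, adjusted p 0.000266). Against DMSO siNT the knockdown libraries had NR1H3 at -1.98, GRAMD1B at -2.30, CAV1 at -2.09, STARD5 at -1.74, PCYT2 at -1.09, DGAT2 at 1.91 and G0S2 at 1.85.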

How the data were processed

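RNA from IMR90 ER:RAS cells was sequenced as paired-end, strand-specific poly(A) libraries. Per the study's methods, the authors trimmed reads with cutadapt, aligned them to GRCh38 with HISAT2 (versions 4.7 and 2.2.1 in the submitters' processing notes) and ran TElocal, which shares multimapping reads by maximum likelihood. The deposited values were expected counts per gene and repeat locus, so paralogs and repeats can trade reads. They were read as the whole numbers given, and repeat loci were summed to subfamilies. Gene names, positions and exon lengths came from GENCODE, whose gene identifiers were all in the tables, and promoters from RefSeq (GRCh38.p14).

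Genes and subfamilies passing filterByExpr (minimum count 10, minimum total 15) were fitted together in edgeR 4.0.16 (R 4.3.3) with TMM factors, 1 term per group over all 17 libraries, and the quasi-likelihood F test. P-values were adjusted by Benjamini-Hochberg over the 19473 genes, and an adjusted p under 0.05 was a call. The code was tested on simulated data. DESeq2 1.42.0, RLE factors, no filter, genes alone, 2 groups only, covariates, subsets and leaving out each library were alternatives. Depth was 39.11 M to 68.98 M counts per library. Differences in V and VM were tested in a fit chosen after seeing the data. The 32 genes and all lists were chosen with earlier results of these data known. All 32 are named in each of the 3 comparisons between groups, and of each other list up to 3 called genes with the largest change, except 1 gene that is not reported here.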

Additional observations from a re-analysis of the deposited data

Results flagged for a closer look

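Within the groups, 96 sets of libraries (32 genes in 3 groups) were searched for a highest or lowest library far from the rest, and 6 were found, where chance alone gives about 1 in 20. In DMSO siNT, library 4-3VM stood above the others for PMVK (29.7 CPM, others 17 to 20.7) and EBP (26.8 CPM, others 17.5 to 20.0). Library 2-2VM of the same group did so for SC5D (94.0 CPM, others 72.7 to 78.2) and DHCR7 (116.4 CPM, others 84.6 to 93.2). In 4OHT siNT, ABCA1 was highest in 2-1VM (182.1 CPM, others 137 to 152). In 4OHT siSMARCA4, MYLIP was highest in 4-3V (4.58 CPM, others 2.93 to 3.28).

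The VM minus V difference itself differed between 4OHT siSMARCA4 and DMSO siNT for FADS2, by 0.84 on the log2 scale (SE 0.20, adjusted p 0.0498), and for SMARCA4, by -0.76 (SE 0.18, adjusted p 0.0455). SMARCA4 was lower in VM than in V knockdown libraries (-0.54) and higher in VM than in V DMSO siNT libraries (0.23, not called). What the letters stand for is not given, so a cause was not tested.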

How the results depend on the processing

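Against DMSO siNT, the counts of genes called stayed within 1.5 times their value under every alternative run: 6 to 10 higher and 7 to 12 lower for 4OHT siNT, 9 to 13 higher and 5 to 8 lower for 4OHT siSMARCA4. For 4OHT siSMARCA4 against 4OHT siNT (6 higher, 2 lower) the counts moved more. VM libraries only gave 16 higher and 1 lower, the siSMARCA4 VM libraries against siNT in the fit of all libraries 15 and 1, V or VM as a covariate 11 and 1, V or VM with siRNA number as covariates 12 and 1, and siRNA number 2 only 10 and 2 (FDFT1 in place of ACLY). The siSMARCA4 V libraries against siNT gave 3 and 3, and siRNA number 4 only 3 and 0 (by edgeR, with unadjusted p below 0.05 for 3 lower genes, DESeq2 not applied). No filter on low counts left 1 lower. The fits with both covariates and with siSMARCA4 divided by letters were chosen after seeing the data. Without any 1 library, 4 to 9 were higher and 1 to 2 lower. ACLY was the gene lost in the fits with 1 lower.

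The replicate block gave 12 higher and 1 lower. Whether the tags paired the libraries could not be decided from so few pairs. Deviations of 4OHT siNT and siSMARCA4 libraries with the same number and tag correlated at 0.052, -0.105 and 0.297. Those of libraries with other labels correlated at -0.283 to 0.311, and letters and siRNA number add to all of these deviations.

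Single genes that changed sign with a call in either fit were SREBF2 (0.00, siRNA number 2 only) and FADS2 (0.13, number 4 only) in 4OHT siNT against DMSO siNT, ACAT2 (-0.32, V libraries) and MVK (0.29, VM libraries only, and 0.28 in the fit of all libraries) with the knockdown, and TM7SF2 (0.67, number 4 only) in siSMARCA4 against DMSO siNT. The causes were not tested.

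Of 19 calls in 4OHT siNT against DMSO siNT, 8 held under all 23 alternatives (ABCA1, ABCG1, ACAT2, EBP, FASN, HMGCS1, LSS and STARD4), and of 8 calls with the knockdown 2 held under all 26 (ABCA1 and CYP51A1). Of 19 calls in siSMARCA4 against DMSO siNT, 13 held under all 23. Counts for ABCG1 in DMSO siNT (2 to 12) limit the precision of its fold change.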
